A study of Mus musculus with 4 samples.

Results

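Accessible chromatin was examined at 34 autosomal mouse genes of fibroblast growth factor (FGF) signalling. These were 20 ligand genes, 6 receptor and co-receptor genes and 8 feedback genes. Each locus comprised the regions of the deposited count table lying at least in part within the gene body in GENCODE M21 (GRCm38) or its upstream 2 kb. All 34 genes had at least 1 region, giving 279 of the 255864 regions of the whole table, of which 250518 lay on chromosomes 1 to 19. The ligands held 165 regions, the receptors and co-receptors 54 and the feedback genes 60. *Fgf13* and *Fgf16* lie on chromosome X and were outside the rule.

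Open chromatin was read by ATAC-seq (a transposase inserts sequencing adaptors where DNA is exposed, and read density serves as the measure of accessibility) on primary osteoblasts of 3-day-old C57BL/6 mice. The comparison was between WT and TCKO animals, the latter carrying Prx1-Cre with Tet1 fl/fl, Tet2 fl/fl and Tet3 fl/fl alleles. The Tet genes encode dioxygenases that oxidise 5-methylcytosine, and Prx1-Cre is active in limb and part of the cranial mesenchyme. It was not given whether the WT mice carried floxed alleles or Cre, and the deleted exons were not examined here. According to the study's methods, the cells came from enzyme digests of calvarial bone, which can carry other cell types along. The labels listed 4 samples, 2 per genotype, while a protocol text spoke of 3 repeats, and the count table held 1 merged column per genotype. Each difference below therefore compares 2 merged libraries, has no replicate check and carries no test of genotype.

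FGF ligands bind receptor tyrosine kinases on the cell surface together with heparan sulphate, or together with a Klotho protein in the case of the endocrine ligands. The receptors signal through the adaptor Frs2, Ras and the ERK kinases, and the ETS factors *Etv4* and *Etv5* are typical targets. Sprouty and Spred proteins and the phosphatase encoded by *Dusp6* are induced by the same signal and dampen it. In the skull, FGF signalling is known for its part in suture growth and osteoblast maturation, and activating changes in FGF receptors cause premature suture closure or dwarfism in humans.

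The regions that the comparison turns on were picked by a fixed rule, as those with most counts, or with the lowest or highest ratio among regions with at least 100 counts. Other regions given below were chosen after their values were seen, apart from the start regions. Their central 200 bases are shown so that the letters behind each value can be read. They were taken from RefSeq's GRCm38.p6 sequence, plus strand, 5′ to 3′. Not every region that the rule names is shown, and that with most counts among the feedback genes overlapped an untranslated region. Capitals mark matches on either strand to CGGAAG (core of ETS sites), TGANTCA (AP-1), TGTGGT (Runt) or GGAATG (TEAD).
Fgf18 intron, chr11:33129376-33129575: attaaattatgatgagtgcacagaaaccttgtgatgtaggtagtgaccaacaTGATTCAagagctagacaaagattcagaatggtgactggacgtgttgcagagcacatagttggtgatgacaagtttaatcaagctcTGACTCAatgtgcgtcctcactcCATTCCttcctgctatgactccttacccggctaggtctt
Fgf14 intron, chr14:124264670-124264869: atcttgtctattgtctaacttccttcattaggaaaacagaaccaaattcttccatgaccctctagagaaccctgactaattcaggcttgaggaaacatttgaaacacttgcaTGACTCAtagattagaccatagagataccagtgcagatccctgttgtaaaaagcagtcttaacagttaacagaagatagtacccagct
Fgf7 intron, chr2:126060711-126060910: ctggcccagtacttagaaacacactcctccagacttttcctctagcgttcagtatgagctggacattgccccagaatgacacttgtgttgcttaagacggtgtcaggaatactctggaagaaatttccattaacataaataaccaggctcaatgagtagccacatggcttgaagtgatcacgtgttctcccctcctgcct
Fgf18 start, chr11:33148179-33148378: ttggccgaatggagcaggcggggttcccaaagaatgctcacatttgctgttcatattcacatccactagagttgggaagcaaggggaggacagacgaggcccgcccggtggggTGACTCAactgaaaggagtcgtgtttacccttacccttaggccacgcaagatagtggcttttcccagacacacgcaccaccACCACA
Fgfr2 intron, lowest ratio, chr7:130205292-130205491: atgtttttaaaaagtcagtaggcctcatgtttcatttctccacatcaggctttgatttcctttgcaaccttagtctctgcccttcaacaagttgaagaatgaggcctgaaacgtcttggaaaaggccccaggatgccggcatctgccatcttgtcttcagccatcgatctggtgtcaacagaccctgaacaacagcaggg
Fgfr2 intron, highest ratio, chr7:130237291-130237490: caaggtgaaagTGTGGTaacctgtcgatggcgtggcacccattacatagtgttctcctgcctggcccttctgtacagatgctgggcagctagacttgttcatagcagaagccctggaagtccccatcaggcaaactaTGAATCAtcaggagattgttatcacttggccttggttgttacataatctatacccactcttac
Fgfr1 intron, chr8:25536993-25537192: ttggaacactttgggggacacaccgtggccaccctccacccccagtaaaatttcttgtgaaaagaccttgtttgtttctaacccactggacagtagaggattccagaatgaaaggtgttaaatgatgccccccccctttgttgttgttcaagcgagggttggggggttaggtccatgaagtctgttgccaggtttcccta
Spred2 intron, highest ratio, chr11:19992927-19993126: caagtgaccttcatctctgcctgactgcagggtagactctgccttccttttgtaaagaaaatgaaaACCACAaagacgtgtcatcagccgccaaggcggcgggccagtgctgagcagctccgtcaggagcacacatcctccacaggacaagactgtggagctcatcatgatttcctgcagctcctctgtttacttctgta
The *Fgf18* intron window held 2 AP-1 matches and 1 TEAD match, and the *Fgf14* window 1 AP-1 match. In *Fgfr2*, the window with the highest ratio at 100 counts or more held 1 AP-1 and 1 Runt match. That with the lowest ratio held none of the 4 motifs. The *Fgf7* and *Fgfr1* windows held none either, and the *Spred2* window held 1 Runt match. The *Fgf18* start window, from a region with a ratio of −0.03, held 1 AP-1 and 1 Runt match. Among all autosomal regions, 4.09% held the ETS letters in the central 200 bases, 23.6% the AP-1 letters, 22.2% the Runt letters and 16.3% the TEAD letters. A match describes letters and is not evidence of binding.

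The table summed to 56898657 WT and 34608167 TCKO counts, so TCKO counts were multiplied by 1.64 before comparison. Ratios are on the log2 scale, TCKO after scaling over WT with 1 count added to each, and are negative where TCKO was lower. The range in parentheses after a ratio comes from the 95% Wilson interval for the fraction of reads that were TCKO. It covers counting error only, since the merged columns hold no spread between replicates. PCR copies cannot be told from separate molecules without molecular identifiers, so the interval can be too narrow even for that. The median ratio of all autosomal regions was 0.07 with this scaling, but −0.64 without scaling and −0.53 with a depth taken from the peak caller's background. Directions are therefore relative to the total count, and only differences from the median of all regions are nearly free of that choice.

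All 8 osteoblast marker loci had regions with counts in both genotypes, although the single region of *Bglap* had a summit in the WT list alone. Their summed counts were 28950 in WT and 27772 in TCKO after scaling. Intervals lay below 0 at 3 of the 8 loci and above 0 at 1, beside 32.8% and 23.8% of all coding loci. The ratios ranged from *Alpl* at −0.38 (−0.47 to −0.30) to *Spp1* at 0.47 (0.29 to 0.64), with *Runx2* at 0.00 (−0.03 to 0.03). Endothelial marker loci were higher in TCKO at 5 of 5 genes, with summed counts of 6570 against 8437 and a median ratio of 0.47. Macrophage or osteoclast loci summed to 5539 against 6007 (2 of 6 higher, 1 lower), skeletal muscle loci to 2321 against 2478 (1 of 5 higher) and chondrocyte loci to 9245 against 8748 (2 of 5 higher, 3 lower). No marker locus was without counts. The part of other cell types in the FGF results was not tested, and in a bulk sample fewer cells of a type cannot be told apart from less accessible DNA per cell. *Tet1*, *Tet2* and *Tet3* had ratios of −0.16, −0.22 and −0.14, but accessibility over a whole locus does not measure the deletion.

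The FGF loci together drew nearly the same share of the reads in both genotypes. They held 69212 WT counts, or 0.122% of the total, and 41393 TCKO counts, or 0.120%. The median ratio over the 279 regions was 0.01, against 0.07 over all autosomal regions and 0.03 over those in a coding locus. Of the 34 loci, 8 had an interval wholly below 0 and 7 an interval wholly above 0, beside 32.8% and 23.8% of the 17465 coding loci with a region. Without scaling, 33 of the loci lay below 0 and 0 above, and with the peak caller's depth 32 below and 1 above. Shares of all coding loci are not given for these, and the median of all autosomal regions was then −0.64 and −0.53. With scaling to totals, the median ratio over the 34 loci was −0.02, beside −0.03 over all coding loci.

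**Figure D1:**
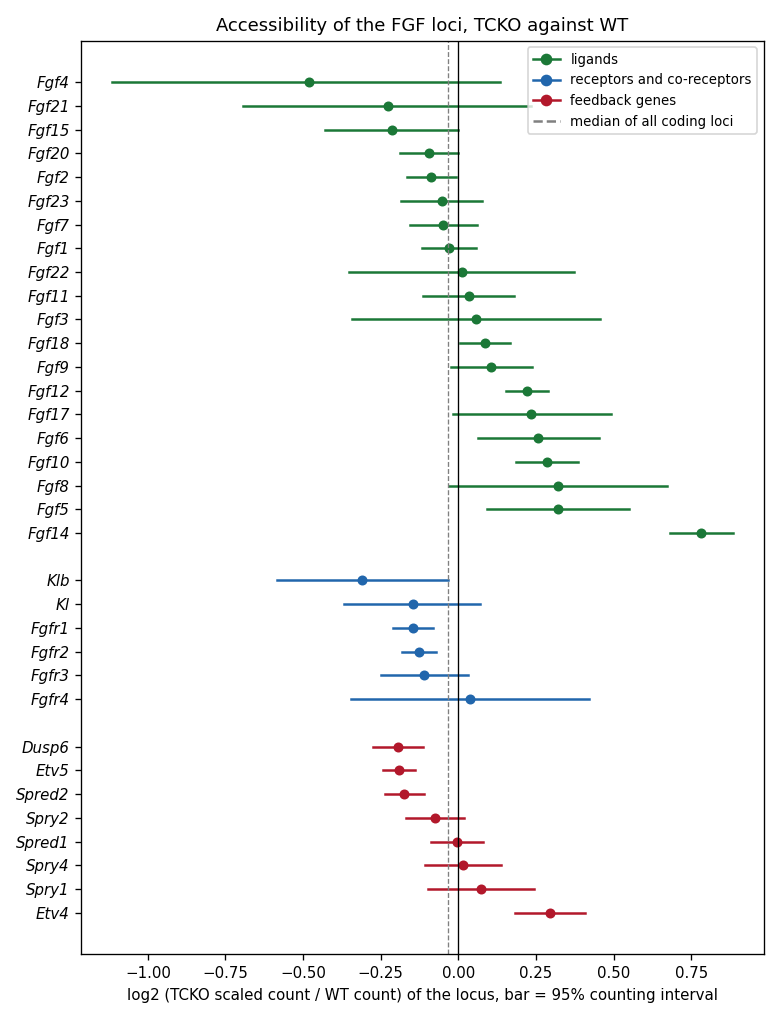
Log2 ratio of the summed counts of each of the 34 loci, TCKO scaled to the WT total over WT, with the 95% counting interval as a bar. *Fgf14* stands at 0.78 and is the farthest from 0, while the receptors sit between −0.31 and 0.04. All points move down by the same amount under no scaling.

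Regions past a 2-fold difference were few and mostly ligand regions. At least 2-fold lower ratios were found at 8 member regions, or 2.87%, beside 4.49% of all autosomal regions and 4.48% of those in a coding locus. At least 2-fold higher ratios were found at 27 regions, or 9.68%, beside 12.3% of all autosomal regions and 10.5% of those in a coding locus. Of the 27 higher regions, 25 lay in ligand loci, 14 of them in *Fgf12* or *Fgf14*, and the other 2 in *Spred1* and *Spry4*. Intervals wholly below 0 were found at 52 of the 279 regions and wholly above 0 at 75, beside 18.9% and 29.6% of all autosomal regions. Of the 136382 regions in a coding locus, 28453 had intervals below 0 and 37052 above. All 27 higher regions had intervals above 0, but in 24 of them the genotype with more reads had under 100 raw counts. The same held for 4 of the 8 lower regions. As the TCKO total was the smaller, a limit on raw counts is stricter for higher regions than for lower ones. The 8 lower regions were 3 in *Fgf2*, 2 in *Fgfr2* and 1 each in *Fgf7*, *Fgf12* and *Fgf14*. None of the 8 had a summit in the TCKO peak list and 20 of the 27 had none in the WT list, which follows in part from the same reads.

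**Figure D2:**
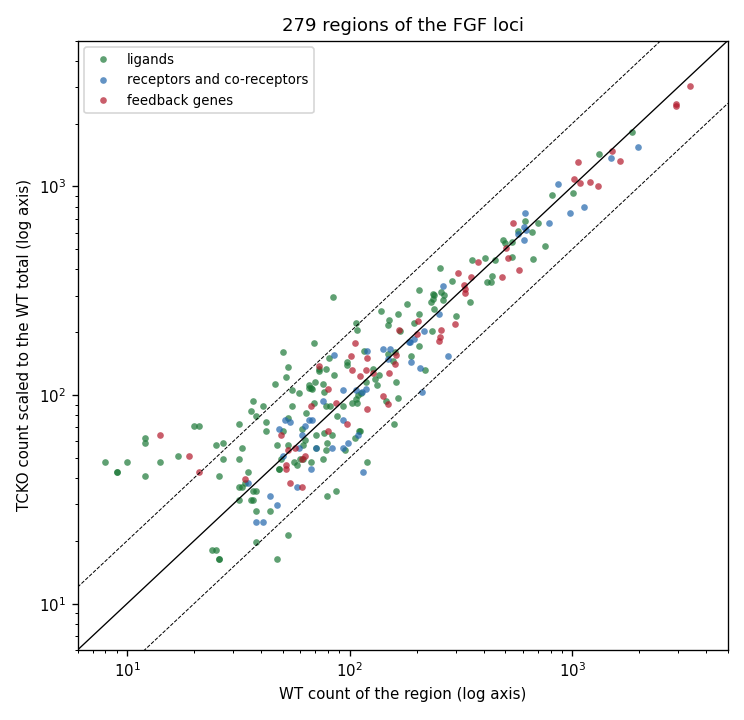
WT count against the TCKO count scaled to the WT total for the 279 regions, on log axes, with the line of equality and dashed lines at 2-fold. Regions past the dashed lines lie mainly at low counts, and the strongest regions stay close to equality. The vertical position of the whole cloud depends on the scaling.

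The medians of all 3 classes lay within the middle range of all autosomal regions. The median ratio was 0.13 for ligand regions (quartiles −0.23 and 0.67), −0.07 for receptor and co-receptor regions (−0.48 and 0.15) and −0.03 for feedback regions (−0.30 and 0.23). Relative to the median of all autosomal regions, these were 0.06, −0.14 and −0.10. The feedback value was −0.019 with medians removed in bins of GC content. Within 2 kb of the gene start the ligand value was −0.0092, still taken against all autosomal regions and not against start regions. Ligand regions within 1 kb of a transcript start had a median of 0.10, beside −0.06 for all start regions of coding loci. The 65 regions of the intracellular ligands had a median of 0.55, while the 100 regions of the secreted ligands had a median of −0.08. Of the 65, 63 lay in the long genes *Fgf12* and *Fgf14*, and the locus ratio of *Fgf11* was 0.03. At least 2-fold higher ratios made up 15.2% of ligand regions, 0 of 54 receptor regions and 3.33% of feedback regions. Members are not replicates, so these medians describe the regions and were not tested.

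**Figure D3:**
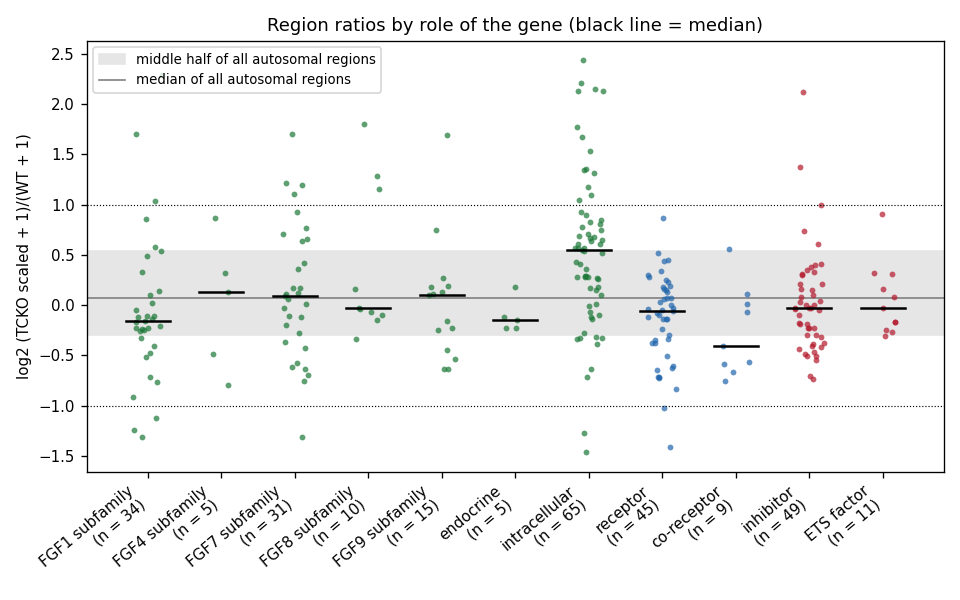
Log2 ratio of every member region by the role of its gene, with black lines at the group medians, the grey band spanning the middle range (quartiles) of all autosomal regions and dotted lines at 2-fold. The intracellular ligands, with 63 of their 65 regions in *Fgf12* and *Fgf14*, reach a median of 0.55 and the co-receptors −0.41. A different scaling shifts points and band together.

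Peak calls were shared at 160 of the 279 regions. A summit in the WT list alone was present at 94 regions, or 33.7%, beside 33% of all autosomal regions, and in the TCKO list alone at 25 regions, or 8.96%, beside 10.2%. Among regions in a coding locus these shares were 32.5% and 9.06%. The share with a WT summit alone was 48.1% in receptor and co-receptor regions, 30.3% in ligand regions and 30.0% in feedback regions. With as many WT summits kept as the TCKO list holds, members with a WT summit alone numbered 49 and those with a TCKO summit alone 43.

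Among the intracellular ligands, *Fgf14* had the highest ratio of all 34 loci. *Fgf11*, *Fgf12* and *Fgf14* encode proteins that are not secreted and bind voltage-gated sodium channels instead of acting as growth factors. *Fgf14* had 1525 WT and 1595 TCKO counts over 25 regions, and a ratio of 0.78 (0.68 to 0.88). It was the only one of the 34 loci in which raw TCKO counts exceeded raw WT counts, and its ratio was 0.06 without scaling and 0.17 with the peak caller's depth. Of its regions, 19 had an interval above 0 and 1 below, and 8 were at least 2-fold higher. *Fgf12* had 4085 and 2895 counts over 38 regions and a ratio of 0.22 (0.15 to 0.29), with 17 regions above 0 and 3 below. *Fgf11*, a gene of 5.79 kb against 593 kb and 699 kb for *Fgf12* and *Fgf14*, had 958 and 596 counts and a ratio of 0.03 (−0.11 to 0.18). Of these, 701 and 406 counts were in chr11:69803538-69804218, centred at −2020 bases from the gene start, which also lay in the locus of *Tmem102*.

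Within *Fgf14*, the rule named the intronic region chr14:124264563-124264976, 412358 bases from the gene start, with 69 WT and 108 TCKO counts. Scaled, this was 178 against 69, a ratio of 1.35 (0.93 to 1.80), and the authors' fold enrichment at its summit was 4.03 in WT and 6.19 in TCKO. The strongest region near its start, chr14:124675832-124676538, had 169 and 124 counts and a ratio of 0.27 (−0.06 to 0.60). All 8 regions of *Fgf14* that were at least 2-fold higher were intronic, as were most of its 25 regions. Set beside the 16394 regions of 215 other coding genes of at least 500 kb, the 63 regions of *Fgf12* and *Fgf14* had a median ratio of 0.57 against 0.17, and 22.2% against 16.9% were at least 2-fold higher. The median WT count was 58 against 67, so counts of this size carry wide intervals in both sets.

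Ligand regions with AP-1 letters had higher ratios than those without, and so had regions across the genome. Member regions with TGANTCA in the central 200 bases numbered 52 and had a median ratio of 0.48, beside 0.42 for the 59002 such regions of all autosomes. The 227 members without it had a median of −0.03, beside −0.02. The letters stood in 30.2% of *Fgf12* and *Fgf14* regions, 14.7% of other ligand regions, 13.0% of receptor and co-receptor regions and 18.3% of feedback regions. They stood in 26.3% of the regions of the 215 other coding genes of at least 500 kb, and in 23.6% of all autosomal regions. In *Fgf12* and *Fgf14* the 19 regions with the letters had a median of 0.71 and the 44 without 0.42. In the other ligands the 15 regions with them had a median of 0.66 and the 87 without −0.10. Member regions with AP-1 letters had a lower median WT count, 67 against 110, but nearly the same median raw TCKO count, 65.5 against 65. Over all autosomal regions the medians with and without the letters were 77 and 90 in WT, and 68 and 58 in TCKO.

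ETS letters, the kind of site that *Etv4* and *Etv5* proteins bind, were found in 12 member regions. Their median ratio was −0.26, beside −0.08 for the 10243 such regions of all autosomes, and 5 of the 12 had an interval below 0 and 2 above, beside 28.1% and 17.3% of those. The 12 included the start regions of *Dusp6* and *Etv4*. Runt letters stood in 58 members with a median ratio of 0.15, beside 0.08 for all such regions, and TEAD letters in 41 with a median of 0.18, beside 0.11.

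Of the FGF8 subfamily, *Fgf18* is the ligand best known for skull and long bone growth. Its locus had 3170 WT and 2046 TCKO counts over 5 regions and a ratio of 0.09 (0.01 to 0.17). The start region chr11:33147724-33148833, centred at −878 bases from the gene start, had the most reads of any ligand region, with 1856 and 1107 counts and a ratio of −0.03 (−0.14 to 0.08). A second start region, chr11:33146279-33146466, had 302 and 145 counts and a ratio of −0.34 (−0.63 to −0.06). In the intron, chr11:33129327-33129624 had 84 WT and 179 TCKO counts, a scaled count of 294, and a ratio of 1.80 (1.44 to 2.18). This was the highest ratio among the 142 member regions whose larger raw count was 100 or more. Its fold enrichment was 4.68 in WT and 7.71 in TCKO, at summit pileups of 18 and 35 reads. The locus ratio of 0.09 turned to −0.07 around the gene start alone and to −0.02 with 25 kb on either side, and to −0.63 without scaling.

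*Fgf8*, a signal of the limb ridge and the midbrain border, had 150 and 114 counts over 2 regions and a ratio of 0.32 (−0.03 to 0.67). *Fgf17*, which acts in midbrain and cerebellum development, had 296 and 212 counts, in part from a region shared with the *Dmtn* locus, and a ratio of 0.24 (−0.02 to 0.49). Both intervals included 0. Each held 1 region past 2-fold with a summit in the TCKO list alone.

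In the FGF1 subfamily, *Fgf2* encodes a heparin-binding ligand that osteoblasts make and store in bone matrix. Its locus had 3532 and 2022 counts over 17 regions and a ratio of −0.09 (−0.17 to −0.01). The start region chr3:37347938-37349137 had 538 and 331 counts and a ratio of 0.02 (−0.18 to 0.21). In contrast, regions inside the gene went both ways, 6 with intervals below 0 and 3 above. At an internal transcript start 31968 bases into the gene, chr3:37380095-37380534 had 159 and 44 counts and a ratio of −1.13 (−1.62 to −0.66), and its neighbour at 32460 bases had 79 and 20 counts and a ratio of −1.24. The only region of *Fgf2* past 2-fold in the other direction, 9018 bases in, had 12 WT and 38 TCKO counts and a ratio of 2.29 (1.46 to 3.30).

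*Fgf1*, whose protein binds all FGF receptors, had 2883 and 1716 counts over 17 regions and a ratio of −0.03 (−0.12 to 0.05). Of these regions 4 were below 0 and 4 above, and all 17 also lay in the locus of *Arhgap26*. Reads there cannot be assigned to either gene.

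**Figure D4:**
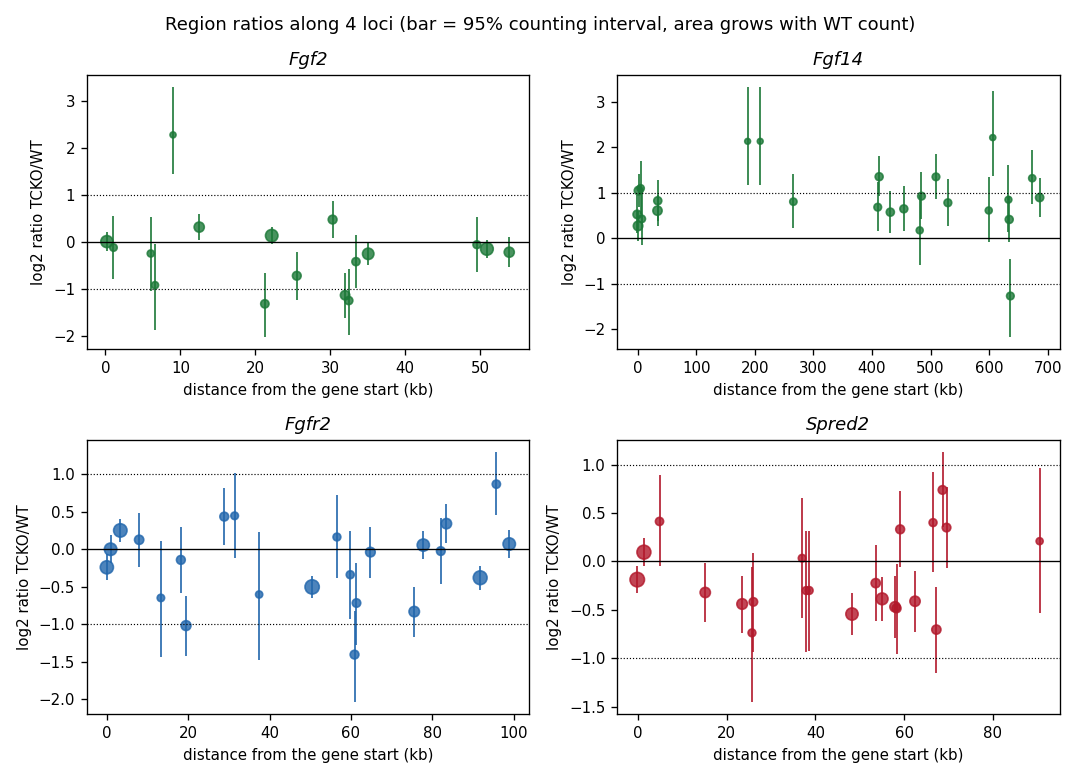
Log2 ratio of each region against its distance from the gene start in *Fgf2*, *Fgf14*, *Fgfr2* and *Spred2*, with 95% counting intervals as bars, marker area growing with the WT count and dotted lines at 2-fold. In *Fgf14* most regions lie above 0 along the whole gene, while low and high regions both occur in *Fgf2* and *Fgfr2*. In *Spred2* most lie below 0, with 10 intervals below 0 and 1 above. With no scaling all points would lie lower by the same amount.

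Of the FGF7 subfamily, *Fgf7* encodes the keratinocyte growth factor that mesenchymal cells make. The locus had 1877 and 1104 counts over 14 regions and a ratio of −0.05 (−0.16 to 0.06), but the regions were split. At the gene start, chr2:126034300-126034994 had 667 and 272 counts, a scaled count of 447, and a ratio of −0.58 (−0.78 to −0.37). Within the intron, chr2:126060703-126060918 had 120 and 29 counts and a ratio of −1.31 (−1.91 to −0.75), the second lowest among regions with at least 100 counts, and a summit in the WT list alone with a fold enrichment of 4.02. Farther into the gene, chr2:126064945-126065215 and chr2:126065323-126065949 had ratios of 0.92 (0.56 to 1.30) and 0.66 (0.41 to 0.91). All 14 regions also lay in the locus of *Fam227b*.

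*Fgf10*, the mesenchymal signal for limb and lung buds, had 1851 and 1372 counts over 15 regions and a ratio of 0.29 (0.18 to 0.39). Of these, 6 had intervals above 0 and 1 below, and 3 were at least 2-fold higher. The region at the start annotated by RefSeq, chr13:118714597-118716024, had 491 and 337 counts and a ratio of 0.17 (−0.03 to 0.37). *Fgf3*, a signal of the inner ear and tail bud, and *Fgf22*, a ligand of synapse formation, had 1 region each with 128 and 81, and 160 and 98 counts. Their ratios were 0.06 (−0.34 to 0.46) and 0.01 (−0.35 to 0.37).

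In the FGF4 subfamily, *Fgf5*, known for its control of hair growth, had 354 and 269 counts in its start region and a ratio of 0.32 (0.09 to 0.55). *Fgf6*, a ligand of developing muscle, had 495 and 360 counts over 3 regions and a ratio of 0.26 (0.06 to 0.45), made of an intronic region at 0.86 and an exonic one at −0.80. The single region counted for *Fgf4*, an early limb ridge ligand, had 67 and 29 counts and a ratio of −0.48 (−1.11 to 0.13). It lay before the start of the GENCODE model, and with the RefSeq bounds *Fgf4* held no region.

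Of the FGF9 subfamily, *Fgf9*, a ligand of early cartilage and bone, had 1211 and 793 counts over 8 regions and a ratio of 0.11 (−0.02 to 0.24). The strongest start region, chr14:58071835-58072309, had 501 and 326 counts and a ratio of 0.10 (−0.10 to 0.30), and that nearest the annotated gene start had 232 and 170 counts and a ratio of 0.27 (−0.02 to 0.55). *Fgf20*, which acts in the inner ear and kidney, had 2444 and 1392 counts over 7 regions and a ratio of −0.09 (−0.19 to 0.00). Its strongest region, with 1322 and 869 counts, also lay in the locus of *Micu3*, and with the RefSeq bounds 4 regions remained.

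The endocrine ligands were close to 0 or slightly lower. *Fgf23*, the phosphate hormone that bone cells secrete, had 1276 and 748 counts over 2 regions and a ratio of −0.05 (−0.18 to 0.08). The more accessible of these, chr6:127079687-127080556 in an exon, had 1010 and 564 counts and a ratio of −0.12 (−0.27 to 0.03). *Fgf15*, a gut hormone that limits bile acid synthesis, had 506 and 265 counts and a ratio of −0.22, with an interval that reached −0.43 and ended just below 0. *Fgf21*, a liver hormone of fasting, had 108 and 56 counts in 1 region and a ratio of −0.23 (−0.69 to 0.23). That region also lay in the locus of *Fut1*.

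Of the 6 receptor and co-receptor loci, 3 had intervals below 0 and none above, beside 32.8% and 23.8% of the 17465 coding loci. Ratios under 0 were found at 5 of the 6, beside 9779 of the 17465. *Fgfr1*, the main receptor of osteoblast lineage cells along with *Fgfr2*, had 5442 and 2994 counts over 14 regions and a ratio of −0.14 (−0.21 to −0.08). Within 2 kb of the annotated gene start the ratio was 0.18, but that window held only chr8:25514655-25514796. This region had 93 and 64 counts and an interval of −0.28 to 0.64, and the strongest region at a transcript start lay outside the window. The region with most reads in the class, the intronic chr8:25536402-25537784, had 1965 and 939 counts, a scaled count of 1544, and a ratio of −0.35 (−0.46 to −0.24). Its fold enrichment was nearly equal, 8.16 in WT and 8.0 in TCKO, a value set against the background of its own library. The strongest region at a transcript start, chr8:25518557-25519434, had 1489 and 832 counts and a ratio of −0.12, with an interval from −0.24 that ended just below 0. Between the start and that intronic region, chr8:25521430-25522062 had 614 and 452 counts and a ratio of 0.27 (0.10 to 0.45).

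*Fgfr2*, whose activating mutations cause craniosynostosis, had 7558 and 4207 counts over 23 regions and a ratio of −0.13 (−0.18 to −0.07). GENCODE M21 extends this gene over 2.96 Mb through 1 transcript model that runs across 30 other coding genes, and that model was left out. With it, the locus had 486 regions, 128694 and 72983 counts and a ratio of −0.10 (−0.11 to −0.09). At the gene start, chr7:130265910-130266562 had 787 and 405 counts and a ratio of −0.24 (−0.41 to −0.07), while the region next to it, chr7:130265036-130265593, had 618 and 376 and a ratio of 0.00 (−0.18 to 0.19). Over the locus, 7 regions had intervals below 0 and 4 above.

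The lowest ratio among members with at least 100 counts was in *Fgfr2*, at chr7:130205269-130205515, 60872 bases into the gene, with 115 WT and 26 TCKO counts and a ratio of −1.41 (−2.04 to −0.82). A neighbour at chr7:130204815-130205006 had 98 and 36 counts and a ratio of −0.72 (−1.28 to −0.18). The second *Fgfr2* region past 2-fold, chr7:130246601-130246960, had 211 and 63 counts and a ratio of −1.02 (−1.43 to −0.62). These 3 regions had summits in the WT list alone. A strong intronic region at chr7:130215391-130216227 had 1135 and 487 counts and a ratio of −0.50 (−0.66 to −0.35). By the same count rule the highest receptor ratio was also in *Fgfr2*, at chr7:130237177-130237605, with 120 and 99 counts and a ratio of 0.44 (0.06 to 0.82). Under 100 counts, chr7:130170487-130170621 in *Fgfr2* had 85 and 95 counts and a higher ratio of 0.87 (0.46 to 1.30). An exonic region 3337 bases from the start, with 860 and 623 counts, had a ratio of 0.25 (0.10 to 0.40).

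*Fgfr3*, the receptor that restrains growth plate cartilage, had 1146 and 646 counts over 6 regions and a ratio of −0.11 (−0.25 to 0.03). Its start region chr5:33721469-33722473 had 608 and 337 counts and a ratio of −0.13 (−0.33 to 0.06). *Fgfr4* had only 141 and 88 counts over 2 regions and a ratio of 0.04 (−0.35 to 0.42). A difference within that interval was not detectable in *Fgfr4* at this depth.

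Co-receptor loci were the least accessible of the class. *Klb*, the partner for *Fgf15* and *Fgf21* proteins, had 320 and 157 counts over 5 regions and a ratio of −0.31 (−0.59 to −0.03), and its start region had 109 and 39 counts and a ratio of −0.76 (−1.29 to −0.24). *Kl*, the partner for *Fgf23* protein, had 470 and 258 counts over 4 regions and a ratio of −0.15 (−0.37 to 0.07), with 195 and 113 counts and −0.07 (−0.40 to 0.26) at its start. Per kb of region, WT counts were 239 for *Klb* and 324 for *Kl*, against 829 for *Fgfr2* and 1014 for *Fgfr1*.

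By class median, feedback genes had the most accessible loci of the family, close to the median of all coding loci. Their median was 768 WT counts per kb of region, against 539 for receptors and co-receptors, 478 for ligands and 732 over all coding loci. Of the 8 feedback loci, 6 lay above that last median, while *Spry1* with 575 and *Spry4* with 638 lay below it. *Dusp6*, with 2130 per kb, and *Etv5*, with 1973, were the highest of the 34. These levels compare read density within WT and were not tested between genes. *Fgf18* with 1216 was the most accessible ligand locus and lay next to *Spry2* with 1239.

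*Dusp6*, which encodes an ERK phosphatase, had 3580 and 1902 counts over 3 regions and a ratio of −0.20 (−0.28 to −0.11), or −0.093 with medians removed in bins of mean count. The region across its start, chr10:99262673-99263741, had 2914 and 1509 counts and a ratio of −0.23 (−0.32 to −0.14), while that centred at −1234 bases from the start, with 506 and 307 counts, was at 0.00 (−0.21 to 0.20).

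The *Etv5* locus had 8792 and 4683 counts over 8 regions and a ratio of −0.19 (−0.24 to −0.14), or −0.082 with the same removal. Its start region, chr16:22439405-22440515, had the most reads of all 279 regions, with 3393 and 1838 counts, a scaled count of 3022, and a ratio of −0.17 (−0.25 to −0.09). Deep in an intron, 50331 bases from the start, chr16:22388880-22389897 had almost as many, 2916 and 1477, and a ratio of −0.26 (−0.35 to −0.17). Another strong region 10597 bases in had 1640 and 808 counts and a ratio of −0.30 (−0.43 to −0.18). Lower ratios were thus found at all 3 of the strongest regions, and 1 region, 4992 bases in with 308 and 234 counts, was higher at 0.32 (0.08 to 0.57).

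*Etv4*, the close relative of *Etv5*, was the 1 feedback locus above 0, with 1486 and 1108 counts over 3 regions and a ratio of 0.29 (0.18 to 0.41). The start region chr11:101784532-101785725 had 1063 and 799 counts and a ratio of 0.31 (0.17 to 0.44). An exonic region with 73 and 84 counts was at 0.91 (0.47 to 1.37). The intervals of the *Etv4* and *Etv5* start regions did not overlap, and a common scaling factor moves both alike. Among the strongest start regions of the 8 feedback genes, that of *Etv4* was the only one with an interval above 0, but the locus ratio was −0.42 without scaling, −0.31 with the peak caller's depth and 0.05 with 25 kb on either side.

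**Figure D5:**
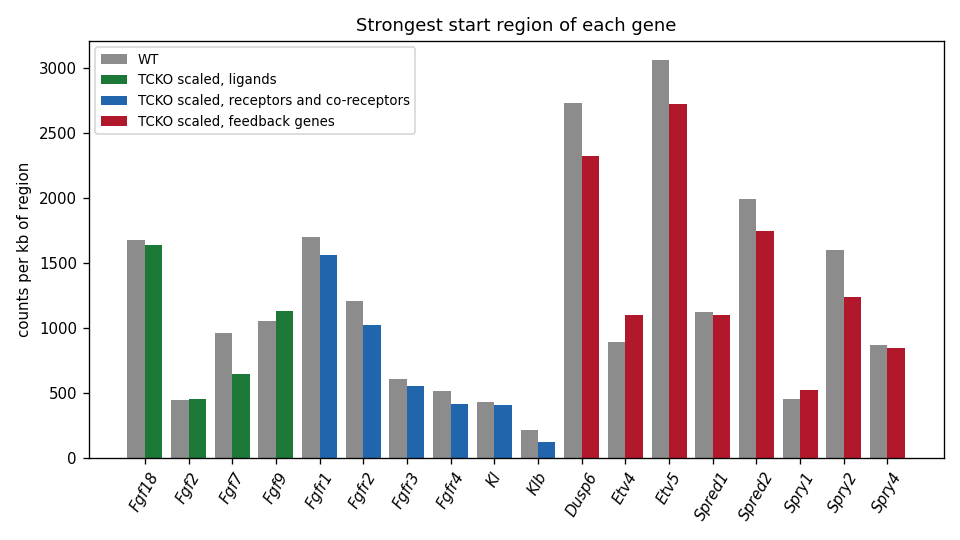
Counts per kb in the strongest region within 1 kb of a transcript start, for 4 ligands, the receptors and co-receptors and the feedback genes, WT in grey and TCKO scaled to the WT total in colour. *Etv5* and *Dusp6* have the tallest bars, and *Etv4*, *Spry1*, *Fgf9* and *Fgf2* are the genes whose TCKO bar is the taller one under this scaling, by a ratio of only 0.02 for *Fgf2*. A smaller factor lowers every TCKO bar alike.

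Sprouty genes, whose proteins block Ras activation, were close to 0. *Spry2* had 2502 and 1443 counts over 5 regions and a ratio of −0.08 (−0.17 to 0.02), made of unequal parts. Its start region chr14:105896913-105897728 had 1306 and 613 counts and a ratio of −0.37 (−0.51 to −0.24), and the region at −2063 bases from the start had 541 and 405 counts and a ratio of 0.30 (0.11 to 0.49). *Spry4* had 1380 and 848 counts and a ratio of 0.01 (−0.11 to 0.14), with −0.05 (−0.19 to 0.09) at its start region of 1080 and 635 counts. *Spry1* had 707 and 452 counts over 2 regions, both at the start, with a locus ratio of 0.07 (−0.10 to 0.24) and 0.21 (−0.02 to 0.43) and −0.10 (−0.36 to 0.16) for the regions.

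Spred genes, which act on the same step, divided. *Spred1* had 3012 and 1825 counts over 12 regions and a ratio of −0.01 (−0.09 to 0.08), and its start region, with 1513 and 903 counts, had −0.03 (−0.15 to 0.09). *Spred2* had 5600 and 3019 counts over 22 regions and a ratio of −0.17 (−0.24 to −0.11). Of these regions 10 had intervals below 0 and 1 above, while its start region, with 1197 and 639 counts, was at −0.19 (−0.33 to −0.05). Among feedback regions with at least 100 counts, the highest ratio lay in the *Spred2* intron, at chr11:19992920-19993134, with 106 and 108 counts and a ratio of 0.74 (0.36 to 1.13).

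Of the 34 loci, 15 held regions with intervals below 0 as well as regions above 0, beside 39.3% of all coding loci with a region, 7 held only the latter, 3 only the former and 9 neither kind. The 68 member regions within 1 kb of a transcript start had a median ratio of −0.02 and the 193 intronic regions 0.07, beside −0.06 for all start regions of coding loci and 0.07 for their other regions. Start regions of ligands had a median of 0.10, of receptors and co-receptors −0.12 and of feedback genes −0.05. CpG sites were denser at starts, with a median of 5.0 CpG per 100 bases in the central window against 1.0 in introns.

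Other genes of the pathway had medians close to 0. Among all coding loci with a region, 32.8% had intervals below 0 and 23.8% above. Of 17 adaptors and kinases, 4 loci had intervals below 0 and 2 above, with a median ratio of 0.03. *Gab1*, a docking protein, was the lowest with 9267 and 4801 counts and a ratio of −0.23 (−0.28 to −0.18), and *Grb2*, the adaptor that recruits Sos, the highest with 3970 and 2705 counts and 0.16 (0.09 to 0.23). Of 13 surface and extracellular modulators, 6 were below 0 and 2 above, with a median of −0.07. *Flrt1*, a membrane protein that binds FGF receptors, had 780 and 358 counts and a ratio of −0.41 (−0.59 to −0.23), and *Fgfbp1*, a carrier that releases FGFs from matrix, had 349 and 343 counts and 0.69 (0.48 to 0.91). All 6 further response genes had intervals that included 0, from *Egr1* at −0.06 (−0.13 to 0.01) to *Ier2* at 0.06 (−0.04 to 0.15). All of these are ratios of accessibility, and no RNA level was measured here.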

How the data were processed

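ATAC-seq was measured in osteoblasts of WT and TCKO mice. Per the submitters' processing notes and the study's methods, the authors mapped reads to GRCm38 with STAR 2.7.0e and called peaks with MACS2. They deposited raw read counts per region with 1 merged column per genotype, and 1 summit list per genotype with fold enrichment (a ratio to local background) and −log10 p-values and q-values. Total counts were 56898657 and 34608167. Every column of sample values in the files was used or named, and 0 were left unassigned.

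Regions were assigned to genes by GENCODE M21 bounds plus 2 kb upstream. For *Fgfr2* an annotated transcript model of 2.96 Mb was replaced by the end at base 130266263. TCKO counts were scaled by 1.64 (ratio of totals) and 1 was added before log2. Intervals are 95% Wilson intervals. With 1 column per genotype no test was run. The genes and lists were chosen with earlier results of these data known. Named regions were, per class, that with most counts and those with the lowest and highest ratio at 100 counts or more, the 2 lowest and 2 highest over all members, and start regions of receptors, feedback genes, *Fgf2*, *Fgf7*, *Fgf9* and *Fgf18*. A region under this rule is not reported here. Regions named beyond this rule were chosen after their values were seen. The steps were tested on simulated data. Alternatives were TMM (edgeR 4.0.16), DESeq2 1.42.0 size factors, no scaling, the peak caller's depth, other pseudocounts, filters, bounds and fold thresholds. R 4.3.3, Python 3.11.15, numpy 2.4.6, pandas 2.3.3, scipy 1.17.1 and matplotlib 3.10.9 were used.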

Additional observations from a re-analysis of the deposited data

How the results depend on the processing

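No paired analysis was possible because each genotype has a single column of merged replicates, so no replicate could be left out either. Of 146 class medians and counts under an alternative, 110 stayed within 1.5 times the reported count or within the 95% interval of the reported median over regions, and 322 of 432 locus ratios stayed within the reported counting interval, a tolerance that is wide for loci with few counts. Adding 10 counts gave no value for counts of intervals, which use no added count, and the minimum of 50 counts was not applied to loci. The alternatives with *Fgfr2* as annotated, RefSeq bounds, no intracellular ligands and no regions of another coding locus were chosen after seeing the data. Scaling mattered most. Loci with an interval below 0 numbered 14 with TMM, 13 with DESeq2 size factors, 33 without scaling, 32 with the peak caller's depth, 13 with medians removed in bins of mean count and 13 with 25 kb on either side. Loci above 0 numbered 0 without scaling and 1 with the peak caller's depth. Shares of all coding loci or of all autosomal regions under the alternatives are not given, so such counts describe the members alone. The medians of ligand, receptor and feedback regions were −0.57, −0.78 and −0.74 without scaling and −0.47, −0.67 and −0.64 with the peak caller's depth, as a smaller factor lowers all ratios alike. Regions at least 2-fold lower and higher numbered 70 and 12 without scaling, 50 and 13 with the peak caller's depth, 0 and 2 within 2 kb of the gene start, 17 and 43 with 25 kb on either side, 31 and 55 at 1.5-fold, 0 and 13 at 3-fold, and 33 and 72 with *Fgfr2* as annotated. Without the intracellular ligands the ligand median was −0.084, or −0.15 relative to all regions, and 13 regions were at least 2-fold higher. With summits at −log10 q of at least 5, 98 regions had a summit in both lists, 59 in WT alone and 10 in TCKO alone, and with equal numbers of summits 49 had one in WT alone and 43 in TCKO alone. Ratios turned negative without scaling for *Fgf5* (−0.39), *Fgf6* (−0.46), *Fgf10* (−0.43), *Fgf12* (−0.50), *Fgf18* (−0.63) and *Etv4* (−0.42), and with the peak caller's depth for the same loci (−0.29, −0.35, −0.32, −0.39, −0.52 and −0.31). Within 2 kb of the gene start, *Fgf2* was at 0.0063, *Fgf12* at −0.011, *Fgf18* at −0.068 and *Fgfr1* at 0.18, the last from a single region whose interval included 0. With 25 kb on either side *Fgf18* was at −0.024. For these the cause was not tested.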
